A study of Mus musculus with 6 samples.

Results

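A set of 10 genes of epithelial sodium absorption and of the aldosterone response were examined by name, out of 27202 genes listed for mouse colon: the epithelial sodium channel (ENaC) subunit genes *Scnn1a*, *Scnn1b* and *Scnn1g*, the channel-activating protease genes *Prss8* and *St14*, the kinase gene *Sgk1*, the mineralocorticoid receptor gene *Nr3c2*, the gene of its guarding enzyme *Hsd11b2*, and the corticosteroid-induced genes *Tsc22d3* and *Fkbp5*. Colonic tissue had been collected for RNA sequencing from mice with *Nedd4l* deleted in the intestinal epithelium (*Nedd4l* fl/fl Villin Cre, 3 libraries) and from their *Nedd4l* fl/fl littermates (3 libraries), on a C57BL/6J background and aged 8 to 10 weeks, after 7 days of 2% dextran sulfate sodium (DSS), an agent that injures the colonic epithelium, in the drinking water. Both groups carried the floxed allele and both received DSS, so that no mouse without DSS and no Cre-only mouse entered the comparison. Villin Cre removes *Nedd4l* from intestinal epithelial cells, while the immune, stromal, muscle and vascular cells of the same tissue keep it. Every level below is a normalized count, that is, the reads of a gene divided by 1 scaling factor per library.

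ENaC is built from an alpha, a beta and a gamma subunit and lets sodium enter the surface cells of the distal colon from the lumen. Aldosterone acts through the mineralocorticoid receptor to raise channel activity, in part through the kinase SGK1, and in the colon it is known to raise the transcripts of the beta and gamma subunits. NEDD4L is a ubiquitin ligase that binds a proline-rich PY motif in the tail of the channel subunits and brings about their removal from the membrane, and SGK1 phosphorylates NEDD4L and weakens this binding. This regulation acts on proteins, whereas the values here are of RNA.

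The coding DNA of the PY motif is shown because it is the feature through which NEDD4L recognizes its classic targets. The longest GENCODE M21 coding sequence of each gene was translated, and the codons for proline, proline, any residue and tyrosine were sought. They were found in 4 of the 10 genes, all 3 ENaC subunits and *Sgk1*, with 1 match each, against 7.04% of 13884 tested protein-coding genes. The 12 bases of the motif are in capitals, with 9 bases on each side, 5′ to 3′ on the coding strand:
Scnn1a: acagcccctCCACCTGCCTATgctacccta
Scnn1b: gggactccaCCCCCCAACTATgactccctg
Scnn1g: ggcacaccaCCCCCCAGATACaataccttg
Sgk1: tacggcctgCCCCCGTTTTATagccggaac
On GRCm38 the 3 subunit stretches lie on the plus strand at chr6:125343987-125344016, chr7:121917976-121918005 and chr7:121767460-121767489, each within 1 coding exon. The motif began 30 codons before the end of the coding sequence in *Scnn1a*, 24 in *Scnn1b* and 26 in *Scnn1g*, that is, in the cytoplasmic tail at the carboxyl end. In *Sgk1* it began 137 codons before the end, within the kinase domain, and its coding DNA spanned an exon junction. No such motif was found in *Prss8*, *St14*, *Nr3c2*, *Hsd11b2*, *Tsc22d3* or *Fkbp5*.

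*Nedd4l* itself was at 476, 942 and 566 in the Villin Cre libraries (replicates 1, 2 and 3, the order used throughout). It was at 1241, 1271 and 1266 in the *Nedd4l* fl/fl libraries, called controls below. All 3 Villin Cre libraries were below all 3 controls, and replicate 2 kept the most. The mean was 662 ± 247 against 1260 ± 15.96 (SD, n = 3 each), and the log2 difference was −0.99 ± 0.24 (SE; adjusted p = 0.225 from limma). On average, Villin Cre replicate 2 also correlated more closely with the controls (r = 0.977 over the genes tested) than with the other 2 Villin Cre libraries (r = 0.966). Without it, the *Nedd4l* difference was −1.28 and passed (adjusted p = 0.0131 from limma).

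With limma, 0 of the 16246 genes tested passed an adjusted p of 0.05 (0%), and so 0 of the 10 genes did, the smallest adjusted p of any gene being 0.111. At an unadjusted p under 0.05, 1122 genes were higher (6.91%) and 1151 were lower (7.08%) in *Nedd4l* fl/fl Villin Cre colon. Of the 10 genes, 2 were higher at that level, *Scnn1b* and *Scnn1g*, and 0 were lower. The same 2 genes were the ones in which every Villin Cre library lay above every control, a separation in that direction seen in 10.5% of all genes, and in either direction in 21.4%. The median log2 difference was −0.042 over the 10 genes and 0.0013 over all genes tested. With 3 libraries against 3, an exact permutation test of a single gene cannot go below p = 0.1.

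**Figure D1:**
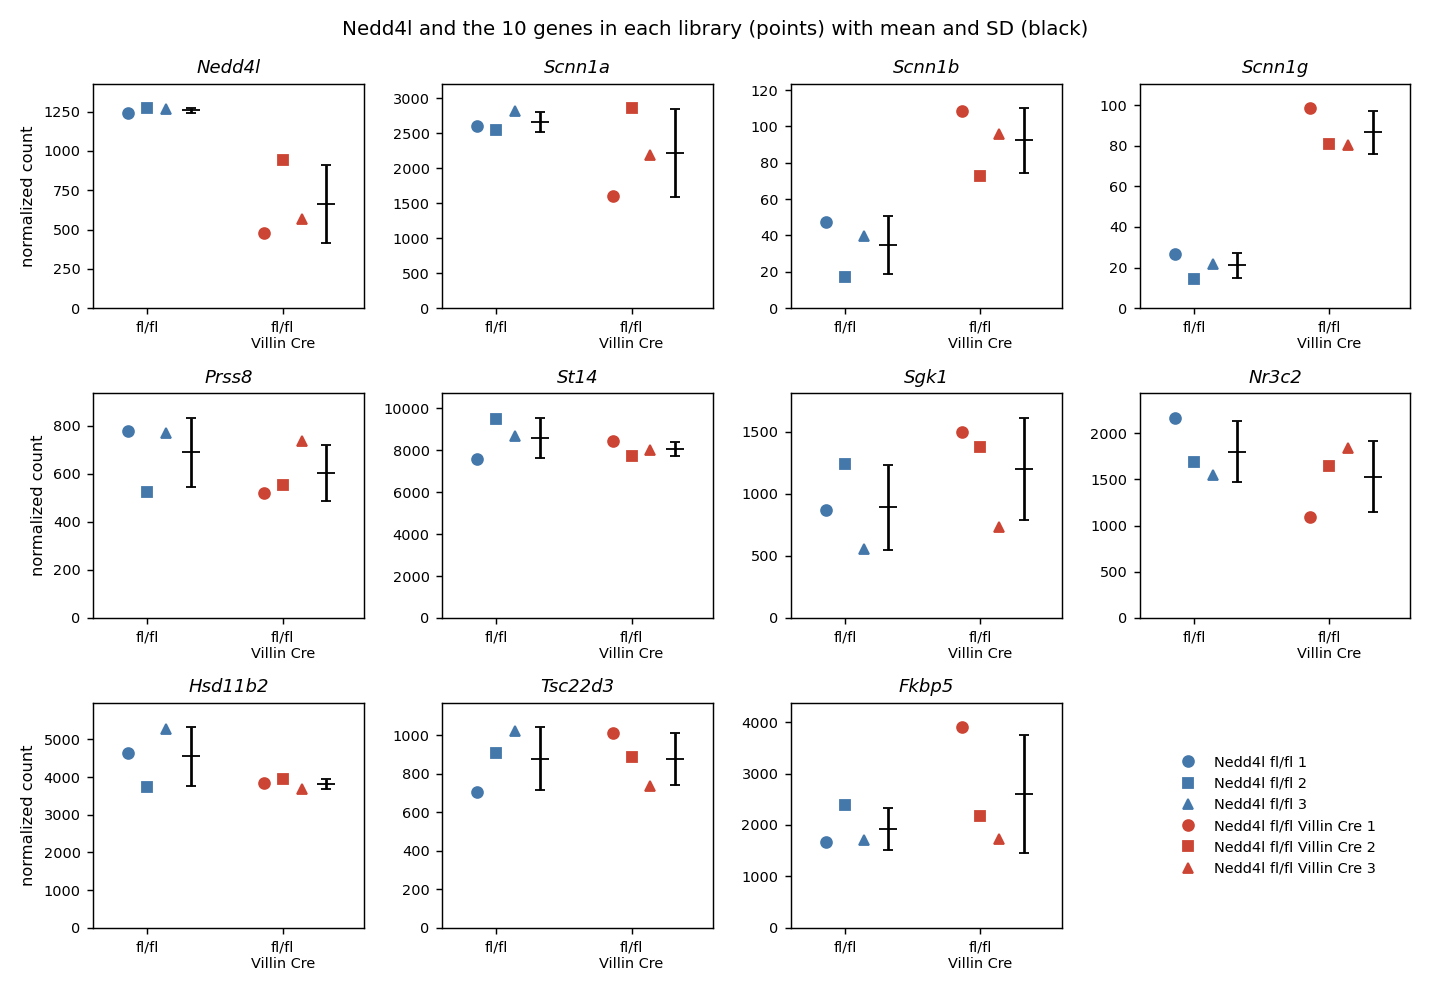
Normalized count (linear axis from 0) of Nedd4l and of the 10 genes in each library, with Nedd4l fl/fl in blue and Nedd4l fl/fl Villin Cre in red, the replicate number by symbol, and mean and SD (n = 3) in black. Scnn1b and Scnn1g lie higher in all 3 Villin Cre libraries than in any control, Nedd4l lies lower, and the other 8 genes overlap.

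*Scnn1g*, which encodes the gamma subunit (ENSMUSG00000000216, chr7:121734479-121768475, plus strand), was at 98.7, 80.7 and 80.5 in Villin Cre replicates 1, 2 and 3. In the controls it was at 26.7, 14.4 and 22.0. The Villin Cre libraries lay close together and far above the controls. The mean was 86.6 ± 10.5 against 21.01 ± 6.19 (SD, n = 3 each), a ratio of 4.12, and the log2 difference was 2.03 ± 0.29 (SE; 95% interval 1.36 to 2.69; adjusted p = 0.116 from limma). Its unadjusted p of 0.000115 from limma was the 13th smallest of all genes tested, and the exact permutation test over the 6 libraries gave p = 0.1 (two-sided), the smallest it can give. The gene is of low abundance: the values stood for 103, 73 and 78 reads in the Villin Cre libraries and for 27 and 16 reads in control replicates 1 and 2. The 95% Poisson interval, which covers counting error only, was 63.3 to 101 for the normalized count of Villin Cre replicate 2 and 17.6 to 38.8 for control replicate 1. These intervals do not meet. Without Villin Cre replicate 2 the log2 difference was 2.08 (adjusted p = 0.0524 from limma).

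*Scnn1b*, the beta subunit gene (ENSMUSG00000030873, chr7:121865038-121918514, plus strand), was at 108, 73.0 and 95.9 in Villin Cre replicates 1, 2 and 3. In the controls it was at 47.4, 17.1 and 39.9. The groups again did not overlap, and the lowest Villin Cre library was replicate 2. The 95% Poisson interval was 56.43 to 92.83 for the normalized count of that library and 34.95 to 62.85 for control replicate 1. Unlike those of *Scnn1g*, these intervals meet. The mean was 92.4 ± 17.9 against 34.8 ± 15.8 (SD, n = 3 each), a ratio of 2.65, with a log2 difference of 1.48 ± 0.39 (SE; 95% interval 0.58 to 2.38; adjusted p = 0.227 from limma). The exact permutation test gave p = 0.1 (two-sided). Control replicate 2, in which *Scnn1b* rested on 19 reads, was the lowest of the 6. Without it the log2 difference was 1.05 (adjusted p = 0.492 from limma), and without Villin Cre replicate 2 it was 1.64 (0.129).

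*Scnn1a*, the alpha subunit gene (ENSMUSG00000030340, chr6:125320659-125344943, plus strand), was at 1607, 2867 and 2197 in the Villin Cre libraries and at 2609, 2553 and 2817 in the controls. The groups overlapped, since Villin Cre replicate 1 was the lowest and replicate 2 the highest of all 6. The log2 difference was −0.30 ± 0.20 (SE; 95% interval −0.76 to 0.17; adjusted p = 0.517 from limma). Without Villin Cre replicate 1 it was −0.082, and without replicate 2 it was −0.50.

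**Figure D2:**
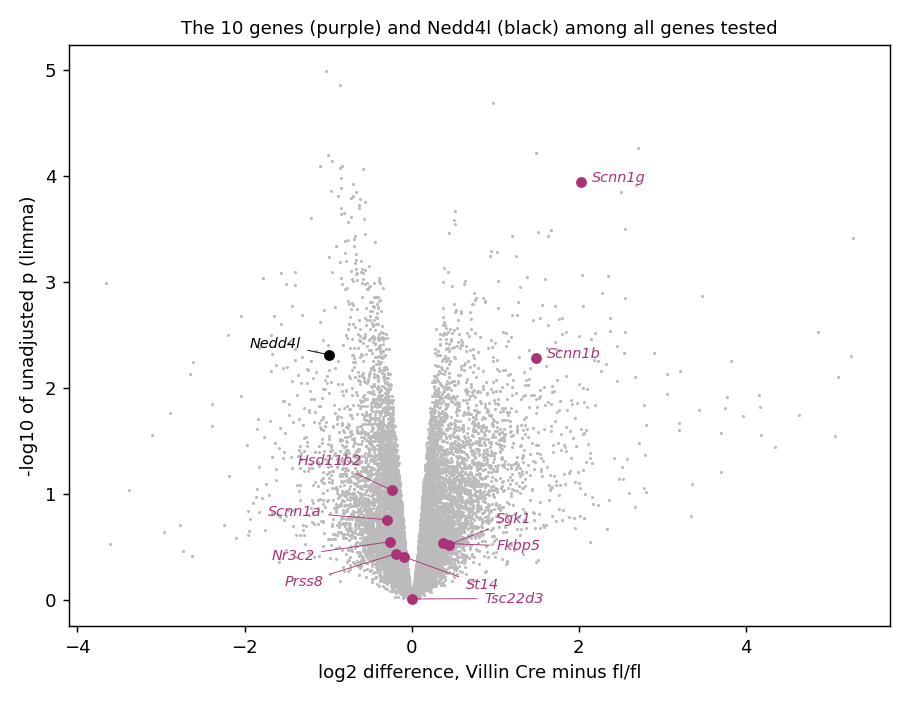
Log2 difference (Villin Cre minus fl/fl; horizontal) against −log10 of the unadjusted limma p (vertical) for 16246 genes in grey, with the 10 genes in purple and Nedd4l in black. Scnn1g (2.03) and Scnn1b (1.48) stand on the right, and the other 8 genes lie between −0.30 and 0.44.

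The calls for the beta and gamma genes depended on how libraries and low values were treated. *Scnn1g* passed an adjusted p of 0.05 when no filter on low values was used (adjusted p = 0.0295 from limma, with 0.11% of genes called) and when limma weighted the libraries by their fit (0.00975, with 3.88% called). *Scnn1b* passed only with the weights (0.0419 from limma). These were 0.414, 0.562 and 4.39 for Villin Cre replicates 1, 2 and 3 and 0.921, 0.792 and 1.34 for the controls. The weighted calls thus leaned on Villin Cre replicate 3. Reads could be recovered for 5 of the 6 libraries. On those, DESeq2 called *Scnn1g* (log2 difference 2.09, adjusted p = 0.000468; 1.44% of genes called), whereas edgeR called 0 genes, with an adjusted p of 0.423 for *Scnn1g*. Over all 18 alternatives *Scnn1g* ranged from 1.79 to 2.21 in log2 difference and *Scnn1b* from 1.05 to 1.76, all of them higher in Villin Cre colon.

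**Figure D3:**
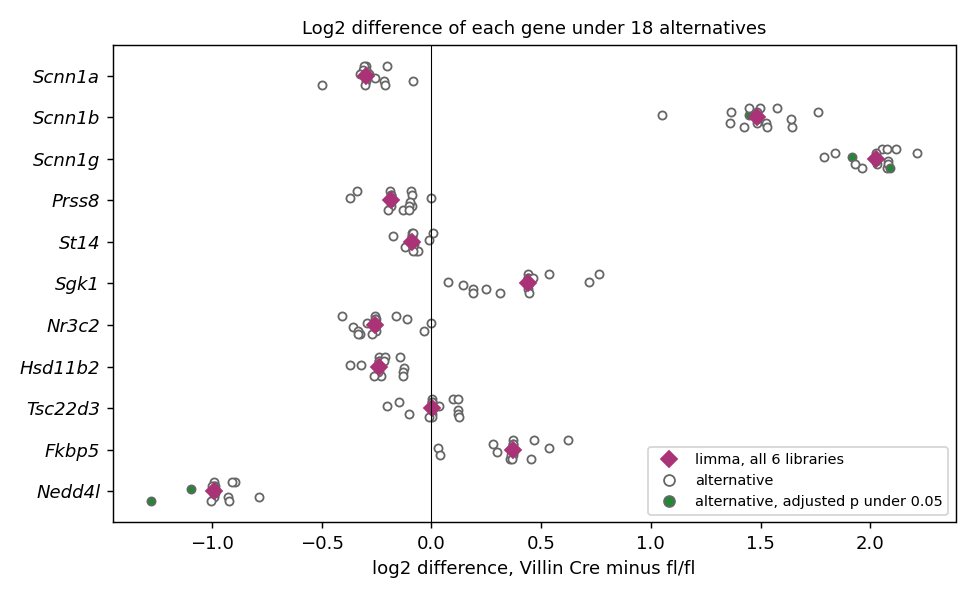
Log2 difference of each gene with limma on all 6 libraries (purple diamond) and under 18 alternatives (circles, filled green where the adjusted p was under 0.05). Scnn1b and Scnn1g stay above 1 under every alternative, while the circles of Tsc22d3 fall on both sides of 0.

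*Scnn1g* and *Scnn1b* are neighbors on chromosome 7, with 96562 bases and 0 listed genes between them, so that the surrounding genes were looked up after these values were seen. On the *Scnn1g* side, *Usp31*, a deubiquitinase gene, differed by 0.16 ± 0.18 (log2, SE; adjusted p = 0.704 from limma). The next tested protein-coding gene, *Igsf6*, an immunoglobulin superfamily gene, differed by 0.75 ± 0.26 (adjusted p = 0.310 from limma), and its 3 Villin Cre libraries were all above the controls. On the *Scnn1b* side, *Cog7*, a Golgi tethering gene that overlaps *Scnn1b* on the other strand, differed by −0.027 ± 0.093 and *Gga2*, a Golgi sorting adaptor gene, by −0.072 ± 0.17 (adjusted p = 0.911 and 0.869 from limma). Whether the counting used strand is not given in the sources used here, so that reads of *Cog7* and *Scnn1b* in the shared stretch may not be told apart. *Cog7* was at 602 to 692 in the 6 libraries, far above *Scnn1b* at 17.1 to 108. Its values therefore cannot show whether shared reads entered those of *Scnn1b*, which was not tested.

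The promoters of these 2 genes are shown because both lay higher in the same libraries. Each is the 250 bases before the start site in RefSeq, GRCm38.p6, plus strand, 5′ to 3′, with GC boxes in capitals:
Scnn1b: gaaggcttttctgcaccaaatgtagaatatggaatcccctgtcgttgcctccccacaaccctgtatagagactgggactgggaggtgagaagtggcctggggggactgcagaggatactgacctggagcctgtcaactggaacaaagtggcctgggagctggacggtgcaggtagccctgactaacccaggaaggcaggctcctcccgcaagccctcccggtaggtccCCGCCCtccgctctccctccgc
Scnn1g: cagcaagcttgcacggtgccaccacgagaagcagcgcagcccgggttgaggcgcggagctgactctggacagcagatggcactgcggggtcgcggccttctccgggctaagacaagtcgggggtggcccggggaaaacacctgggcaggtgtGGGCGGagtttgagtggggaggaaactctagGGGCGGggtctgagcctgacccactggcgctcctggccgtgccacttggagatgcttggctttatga
They lie at chr7:121864788-121865037 and chr7:121734229-121734478. Both strands were searched for the GC box GGGCGG, the TATA box TATAAA, the AP-1 site TGANTCA and the corticosteroid receptor half-site AGAACA, and the matches found in these 2 windows did not overlap. The GC box occurred 1 time before *Scnn1b* and 2 times before *Scnn1g*, and in 32.7% of all 32851 promoters of this length. The other 3 were not in either window, and occurred in 12.4%, 6.75% and 16.1% of all promoters, respectively. Of the 10 genes, 6 had promoters in the table, 13 in all. The receptor half-site was in promoters of *Sgk1* and *Tsc22d3* and in none of those of *Nr3c2* and *Fkbp5*. *Sgk1* and *Tsc22d3* each had more promoters listed than *Nr3c2* or *Fkbp5*, so that the genes are not compared on equal terms. GC content was 60.8% for *Scnn1b* and 65.2% for *Scnn1g*, against a median of 52.4%.

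Compared per length, the 3 subunit transcripts were far from equal. Per kilobase of listed gene length, which may differ from that of the expressed transcript, the level of *Scnn1a* was 644 ± 33.6 in the controls. It was 13.2 ± 6.00 for *Scnn1b* and 7.02 ± 2.07 for *Scnn1g* (SD, n = 3). In the Villin Cre libraries the levels were 538 ± 153, 35.1 ± 6.81 and 29.0 ± 3.50. The alpha level was thus 35.1, 95.2 and 44.9 times the beta level in control replicates 1, 2 and 3, and 9.45, 25.0 and 14.6 times in Villin Cre replicates 1, 2 and 3. Over the gamma level it was 70.8, 128 and 92.8 times in the controls and 11.8, 25.7 and 19.8 times in the Villin Cre libraries. Neither ratio overlapped between the groups. As log2 ratios, beta to alpha was higher in Villin Cre colon by 1.81 and gamma to alpha by 2.38 (exact permutation p = 0.1 for each, adjusted p = 0.15 over 3 ratios, two-sided). Gamma to beta was higher by 0.57, with overlap between the groups (exact permutation p = 0.2, adjusted 0.2). A ratio within 1 library does not depend on its scaling factor.

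**Figure D4:**
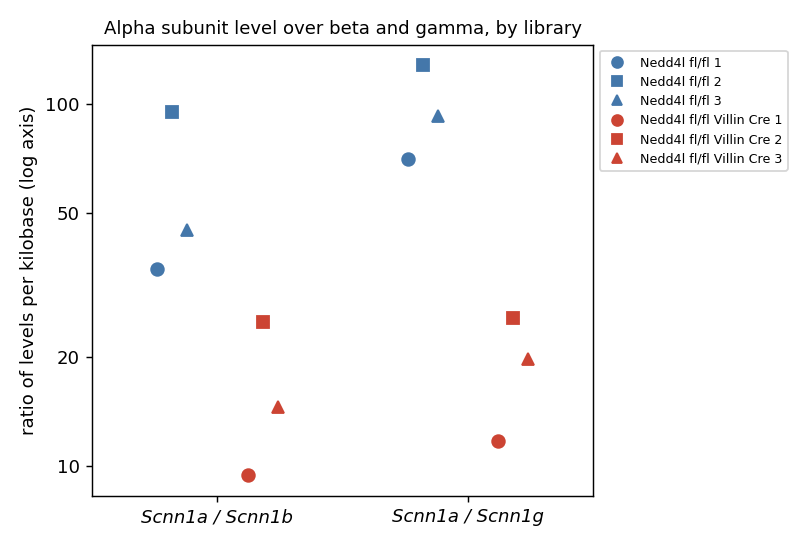
Ratio of the Scnn1a level to the Scnn1b level and to the Scnn1g level, each per kilobase, in every library (log axis), with Nedd4l fl/fl in blue and Nedd4l fl/fl Villin Cre in red. The ratios are 35.1 and above in the controls and 25.7 and below in the Villin Cre libraries.

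The genes that activate the channel or mediate the hormone did not separate the genotypes. Channel-activating proteases cleave ENaC outside the cell. *Prss8*, which encodes prostasin, was at 521, 552 and 738 in Villin Cre colon and at 775, 524 and 770 in the controls, with a log2 difference of −0.19 ± 0.19. *St14*, which encodes matriptase, was at 8416, 7745 and 8018 against 7600, 9510 and 8687 (−0.088 ± 0.098). Both overlapped (adjusted p = 0.677 and 0.697 from limma). With each library left out in turn, *Prss8* ranged from −0.37 to −0.089 and *St14* from −0.17 to −0.013.

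*Sgk1* varied within each genotype. It was at 1501, 1373 and 733 in Villin Cre replicates 1, 2 and 3 and at 873, 1237 and 558 in the controls. Replicate 3 was the lowest library in each group. The log2 difference of 0.44 ± 0.39 had a 95% interval of −0.52 to 1.40 (adjusted p = 0.629 from limma), so that a change in either direction was not distinguishable from none at this spread. It was 0.14 without control replicate 3 and 0.76 without Villin Cre replicate 3.

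*Nr3c2* was at 1098, 1645 and 1840 in Villin Cre colon and at 2170, 1686 and 1544 in the controls (log2 difference −0.25 ± 0.22, adjusted p = 0.612 from limma). The lowest and the highest of the 6 values were both from a replicate 1, of Villin Cre and control colon, respectively. Without Villin Cre replicate 1 the difference was −0.033, and without control replicate 1 it was −0.11. *Hsd11b2*, whose enzyme inactivates glucocorticoids so that aldosterone can occupy the mineralocorticoid receptor, was at 3841, 3940 and 3677 against 4627, 3735 and 5276 (−0.24 ± 0.12, adjusted p = 0.421 from limma). Control replicate 2 lay among the Villin Cre values, so that the groups overlapped. Without control replicate 3 the *Hsd11b2* difference was −0.12, and without control replicate 2 it was −0.37. Per kilobase of listed gene length, *Hsd11b2* had the highest level of the 10 genes in both groups, at 2076 ± 72.2 and 2471 ± 420. This ranking depends on the listed lengths, which may exceed the length of the expressed transcript. Without division by length, *St14* was highest, with means of 8060 and 8599 against 3819 and 4546 for *Hsd11b2*.

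*Tsc22d3*, which encodes the leucine zipper protein GILZ, was at 1009, 887 and 739 in the Villin Cre libraries and at 704, 910 and 1023 in the controls. The 2 ranges nearly coincided, and the log2 difference was 0.0040 ± 0.17 (95% interval −0.38 to 0.39; adjusted p = 0.994 from limma). *Fkbp5*, a steroid receptor co-chaperone gene, was at 3897, 2182 and 1735 against 1667, 2388 and 1710. The log2 difference of 0.37 ± 0.32 (adjusted p = 0.621 from limma) rested on Villin Cre replicate 1, without which it was 0.038.

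The 5 lists of other genes of the pathway, 76 genes in all, gave 0 genes at an adjusted p of 0.05 from limma. The counts of each list are to be read beside the shares over all genes tested. At an unadjusted p under 0.05 from limma, 6.91% of all genes were higher and 7.08% lower, and 21.4% did not overlap. Of 14 other genes of sodium absorption and its driving force, 12 were lower and 2 higher in value, with a median log2 difference of −0.21 against 0.0013 over all genes, and 2 had an unadjusted p under 0.05. These were the basolateral potassium channel genes *Kcnn4* (−0.40 ± 0.12) and *Kcnq1* (−0.40 ± 0.12), and *Kcnk5* followed at −0.34 ± 0.16 (adjusted p = 0.270, 0.275 and 0.380 from limma). *Kcnn4* was at 855, 1073 and 927 in the Villin Cre libraries, all below the controls at 1396, 1121 and 1248. *Kcnq1* separated in the same way, at 782, 1022 and 805 against 1158, 1057 and 1208. Of the 14 genes, 3 did not overlap, 2 lower and 1 higher, a share near the 21.4% of all genes.

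Among 17 genes of kinases, ligases and scaffolds that act on ENaC, 7 were higher and 10 lower in value (median log2 difference −0.0080), and 2 had an unadjusted p under 0.05, both lower. These were *Ywhab* (−0.26 ± 0.091), a 14-3-3 gene, and *Usp10* (−0.25 ± 0.11), a deubiquitinase gene, followed by *Wnk1* (0.15 ± 0.071), a kinase gene (adjusted p = 0.310, 0.348 and 0.391 from limma). *Nedd4*, the close relative of *Nedd4l*, was at 7588, 6598 and 7032 against 7779, 6952 and 7034, a log2 difference of −0.037 ± 0.087 (adjusted p = 0.865 from limma).

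Of 15 genes of serine proteases and their inhibitors, 14 were tested, with a median log2 difference of 0.11 and 2 at an unadjusted p under 0.05, both higher. *Prss22*, which encodes a secreted tryptase, was at 308, 7.74 and 56.7 in the Villin Cre libraries and at 0, 1.80 and 0 in the controls (adjusted p = 0.226 from limma). Its level ranged widely within the Villin Cre group. *Spint1*, which encodes an inhibitor of matriptase, was at 0.14 ± 0.074 (adjusted p = 0.431 from limma).

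Of 13 genes of corticosteroid receptors, chaperones and local steroid synthesis, 10 were tested, with a median log2 difference of −0.15. At an unadjusted p under 0.05, 1 was higher and 2 were lower. *Fkbp4*, the co-chaperone gene that acts opposite to *Fkbp5*, was lower by 0.52 on the log2 scale in value, at 3947, 4974 and 4070 against 5006, 7395 and 6366, with no overlap. *Ptges3*, an HSP90 co-chaperone gene, was at −0.39 ± 0.15 and *Hsd11b1*, whose enzyme regenerates active glucocorticoid, at 0.85 ± 0.30 (adjusted p = 0.276, 0.337 and 0.310 from limma for *Fkbp4*, *Ptges3* and *Hsd11b1*). The glucocorticoid receptor gene *Nr3c1* was level, at 1687, 1643 and 1568 against 1631, 1708 and 1659 (−0.029 ± 0.073).

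The list of 17 other corticosteroid-induced genes had 11 higher and 6 lower in value, with a median log2 difference of 0.35 against 0.0013 over all genes. At an unadjusted p under 0.05 from limma, 5 were higher and 0 were lower, against 6.91% and 7.08% of all genes. *Per1*, a clock gene, was at 775, 625 and 703 in Villin Cre colon and at 546, 556 and 488 in the controls. *Ddit4*, an inhibitor of mTORC1 signaling, was at 2043, 1345 and 1476 against 1174, 964 and 1078. *Cebpd*, a transcription factor gene, was at 1230, 1813 and 1530 against 992, 1223 and 906. In all 3 genes every Villin Cre library was above every control. The log2 differences were 0.40 ± 0.11, 0.58 ± 0.16 and 0.54 ± 0.17 (adjusted p = 0.249, 0.257 and 0.278 from limma). These 3 were named because they had the smallest p of the list. Of its 17 genes, 4 did not overlap, all higher, against 10.5% of all genes in that direction and 21.4% in either. Many of these genes also respond to stress and cytokines. *Tsc22d3* and *Fkbp5*, which were examined by name, overlapped between the groups.

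The levels of some cell type markers differed between libraries. In whole tissue, fewer cells of a type and less RNA per cell cannot be told apart. The 8 colonic epithelium markers summed to 166946 to 195107 in Villin Cre and to 188204 to 207341 in control libraries. Among them 7 were lower in value (median log2 difference −0.081), 0 of them at an unadjusted p under 0.05 from limma. After scaling to these markers, the log2 differences of *Scnn1g* and *Scnn1b* were 2.12 and 1.58. Of 8 surface colonocyte markers, 7 were lower in value (median log2 difference −0.54), with sums of 56112 to 92030 against 75081 to 98067. The sum was lowest in Villin Cre replicates 1 and 3. All 6 fibroblast markers were higher in value (median 0.88), 3 of them at an unadjusted p under 0.05, and their sum did not overlap, at 20966 to 42446 against 10564 to 18057. Of 8 leukocyte markers, 7 were higher in value (median 0.23), 2 of them at an unadjusted p under 0.05 (*Lyz2* and *S100a9*), with overlapping sums of 36358 to 48189 against 24438 to 45489. The T cell gene *Cd3e* was lower without overlap, at 49.8, 50.9 and 48.5 against 61.2, 63.9 and 80.9. *Jchain*, a plasma cell gene, made up 28403 to 39655 of the Villin Cre sums. The mean log2 value of the 8 leukocyte markers, taken relative to the control mean, did not overlap, at 1.91, 0.39 and 1.04 in the Villin Cre libraries against 0.011, −0.21 and 0.20 in the controls. The largest log2 differences within this mean were those of 2 neutrophil genes, *S100a9* (4.35) and *S100a8* (3.70). *S100a8* overlapped between the groups, at 2708, 31.0 and 417 against 12.8, 38.7 and 29.0, as did *Ptprc*, *Cd79a*, *Jchain* and *Adgre1*. *S100a9* was at 2680, 27.6 and 348 against 15.8, 10.8 and 14.98. All 4 proliferation markers were lower in value, and their sum did not overlap, at 11829 to 12937 against 14232 to 14944. The part of these shifts in the values of *Scnn1b* and *Scnn1g* was not tested.

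The remaining marker lists overlapped in their sums. Goblet markers summed to 84938 to 435183 in Villin Cre and 141166 to 297902 in control libraries, posterior Hox genes to 3116 to 5676 against 4823 to 5537, smooth muscle markers to 5395 to 10588 against 4824 to 20465, endothelial markers to 1330 to 2408 against 944 to 1461, and enteric neuron and glia markers to 22.1 to 69.1 against 42.9 to 96.3. ENaC is most abundant toward the distal end of the colon. The mean log2 value of the posterior Hox genes, relative to the control mean, was −1.32, 0.085 and 0.78 in Villin Cre replicates 1, 2 and 3. In the controls it was 0.17, 0.33 and −0.50. It was thus both lowest and highest in a Villin Cre library. This mean gives *Hoxd10*, *Hoxd11* and *Hoxd12*, at 0 to 28.9, the same weight as abundant genes. Of the 5 Hox genes tested, 2 were higher and 3 lower in value. *Hoxa13* was lower without overlap, at 810, 869 and 762 against 1067, 896 and 926 (adjusted p = 0.344 from limma). The part of colon segment in the values of *Scnn1b* and *Scnn1g* was not tested.

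**Figure D5:**
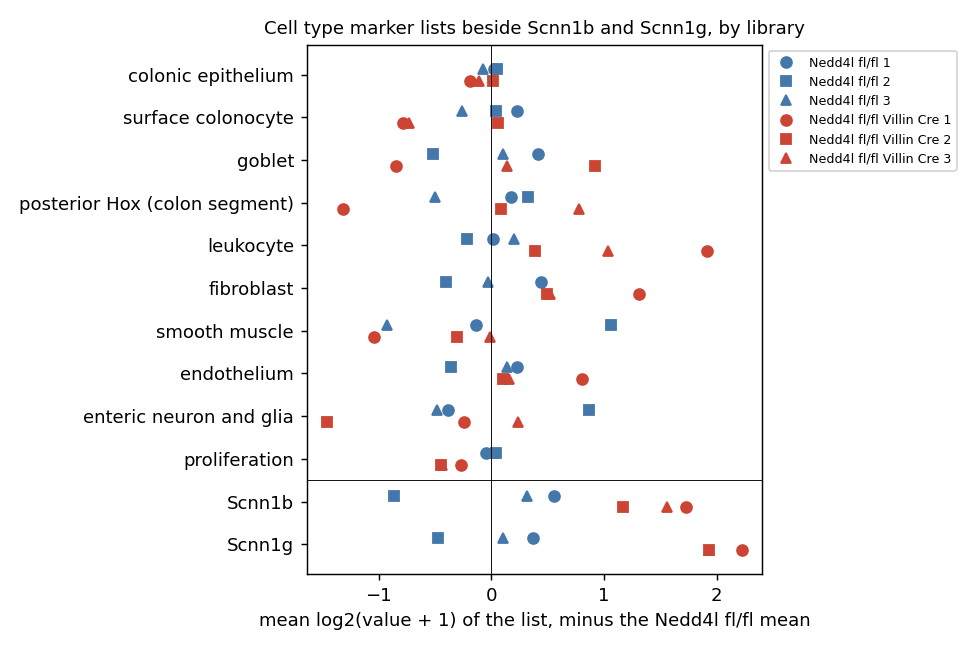
Mean log2(value + 1) of each marker list in every library relative to the Nedd4l fl/fl mean, above the same measure for Scnn1b and Scnn1g, with Nedd4l fl/fl in blue and Nedd4l fl/fl Villin Cre in red. The epithelium list stays near 0. The fibroblast and leukocyte lists lie higher, and the proliferation list lower, in every Villin Cre library than in any control. Scnn1b and Scnn1g also separate the genotypes.

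The genes whose log2 values followed each subunit most closely over the 6 libraries were sought among 11879 protein-coding genes with a mean of at least 50. For *Scnn1a* they were *Neu1*, *Tspan3* and *Igdcc4* (Pearson r = 0.9984, 0.9975 and 0.9968). For *Scnn1b* they were *Nkx2-3*, *Tyrobp* and *Atxn1l* (r = 0.9984, 0.9958 and 0.9906), and for *Scnn1g* they were *9530068E07Rik*, *Fcgr1* and *Tmem50a* (r = 0.9920, 0.9912 and 0.9911). *Tyrobp* and *Fcgr1* are myeloid cell genes. *Tyrobp* was at 327, 226 and 277 against 156, 82.8 and 149, and *Fcgr1* at 161, 125 and 126 against 74.1, 56.7 and 68.9. With 6 points that fall into 2 genotypes and so many genes searched, such values describe the likeness and carry no test. *Scnn1b* and *Scnn1g* had r = 0.947 with each other and r = −0.551 and −0.555 with *Scnn1a*.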

How the data were processed

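Colonic RNA of 2 genotypes, 3 libraries each, was sequenced, and replicate numbers follow the labels. Per the submitters' processing notes, HISAT2 2.0.5 and featureCounts 1.5.0-p3 were used. The notes list build hg18, but 97.04% of the genes have identical coordinates in GENCODE M21 (GRCm38), including all 10 examined here. The authors deposited normalized counts, a signal of reads divided by 1 factor per library. Their columns of genotype means, fold changes and p-values were not used. In every library all values were multiples of the smallest one within 0.01, which gave 14914367 to 17547270 such steps per library, the closest measure of depth. For WT replicate 3 the step lay too near 1 to be taken as recovered reads, so count models used 5 libraries.

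Genes with a mean of at least 10 were tested on log2(value + 1), so that fold changes of low genes are understated, with limma 3.58.1 (trended, robust eBayes; Benjamini-Hochberg; threshold 0.05) in R 4.3.3. Permutation tests over the 6 libraries were exact and two-sided. edgeR 4.0.16 and DESeq2 1.42.0 served as alternatives chosen after seeing the data. Named are the 10 genes, *Nedd4l*, the 3 smallest p in each of 5 pathway lists, and the 3 genes most alike to each ENaC subunit. 1 gene that this rule names is not reported here. Other genes were named after their values were seen (the neighbors of *Scnn1b*, *Nedd4* and *Nr3c1*, and single marker genes). The members and lists were chosen with earlier results of these data known. The labels do not say that each library is from a separate mouse, so that p-values measure the spread between these libraries, and they name no batch.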

Additional observations from a re-analysis of the deposited data

How the results depend on the processing

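Among 18 alternatives, genes called higher and lower were 7 and 23 with no filter on low values, 262 and 369 with array weights, and 101 and 97 with DESeq2 on 5 libraries, and members called were 1, 2 and 1. Leaving out 1 library gave 0 to 70 genes higher, 0 to 52 lower and 0 members called. The highest counts came without Villin Cre replicate 2 (70 and 52), and without Villin Cre replicate 1 they were 2 and 22. The other alternatives called 0 genes. Same-numbered libraries did not deviate together (r = −0.0286, −0.0898 and −0.0556), and the replicate block called 0 genes, with 1.48 for *Scnn1b* and 2.03 for *Scnn1g*. *St14* turned to 0.0060 with epithelial marker scaling. *Tsc22d3* turned to −0.20 with array weights, and over the libraries left out in turn it ranged from −0.15 to 0.12. The other 8 genes kept their direction in all 18. With each library left out in turn, beta to alpha ranged from 1.39 to 2.18, gamma to alpha from 2.07 to 2.63, and gamma to beta from 0.45 to 0.77. The count models over all 6 libraries were not run. *Scnn1b* and *Scnn1g* rested on 16 to 113 reads per library, which limits their precision, and 3 libraries per genotype limit every test.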
